A study of Homo sapiens with 2 samples.

Results

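The genes described here are the growth factors, their receptors and the proteins that bind them: genes whose symbol in the platform annotation starts with FGF, VEGF, PDGF, IGF, NRG, ERBB, DDR, ROR, NTRK, STC, ANGPT or HGF, together with BTC, EREG, AREG, HBEGF, TGFA, EGFR, MET, MST1R, AXL, INSR and LIF, antisense symbols left out. The rule found 96 of 13763 named genes. They were measured in S2-013 cells, a human pancreatic cancer cell line, on whole-transcript arrays. The treated sample was HOXB7-knockdown cells that carried a HOXB7 rescue plasmid and received a MEK inhibitor (treated cells, 1 array), and the control was the same knockdown and rescue cells without the inhibitor (untreated cells, 1 array). Both samples thus shared the knockdown and the rescue, and no parental or knockdown-only array was analysed here. The inhibitor's name, dose and exposure time, and whether the cells were 1 clone, are not stated in the sources available here. Per the series' design text, the aim was to find genes and pathways controlled by signalling through HOXB7, a homeobox transcription factor, and MEK.

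Receptor tyrosine kinases are cell surface proteins that are switched on by a secreted ligand and pass the signal through adaptors to RAS, RAF, MEK and ERK. ERK in turn controls transcription, including that of genes for ligands and for proteins that restrain the receptors. In other carcinoma cells, block of MEK is known to be followed by higher expression of some receptor kinases and ligands. Binding proteins add a further layer, since IGF binding proteins hold IGFs away from their receptor and FGF binding proteins release FGFs from the extracellular matrix. The rule also caught 12 genes by name only: the RNA-binding protein genes IGF2BP1, IGF2BP2 and IGF2BP3, the nuclear receptor genes RORA and RORB, DDRGK1, FGFR1OP2, the FGF7 pseudogenes FGF7P3 and FGF7P6, and the non-coding FGF14-IT1, NRG1-IT3 and PDGFA-DT. The label of growth factors and receptor kinases therefore holds for the other 84.

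Values are on the log2 scale of the deposited table, and a difference is the value with the inhibitor minus the value without it. A gene was called above the floor when its higher value reached 4.78, the median level of the named genes. This was so for 39 of the 96 members (40.6%), against 7164 of 13763 named genes (52.1%). Of the 39, BTC, PDGFRL and IGFLR1 reached the floor only with the inhibitor, and FGFR4 and VEGFC only without it. With 1 array per group there is no replicate error and no test, and the inhibitor cannot be told apart from any other difference between the cultures or arrays. Probe error alone could be estimated, from genes read by several probe sets. In 145 such genes the brightest pair of probe sets gave differences that lay apart by 0.14 at the median and by 0.56 or less in 95% of genes. Over all 443 pairs of probe sets the 95% bound was 0.80, which serves below as the wider limit. HOXB7 read 5.85 in treated cells and 5.84 in untreated cells. The 5 epithelial markers named on the array (KRT7, KRT8, KRT18, KRT19 and EPCAM) were all above the floor, with differences from -0.29 to 0.35. Fibroblast markers DCN and LUM, endothelial markers PECAM1, VWF and KDR and the leukocyte marker CD14 lay below the floor on both arrays. The endothelial markers ESAM (-0.63) and CLDN5 (-0.06) and the leukocyte markers CD68 (-0.43), TYROBP (-0.39) and LYN (-0.33) were above it. TYROBP reached it only without the inhibitor. The part of these markers in the results was not tested.

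The lowest differences among members above the floor were those of STC1, IGFBP1, IGFBP6 and ANGPTL4. STC1, which encodes the secreted glycoprotein stanniocalcin, read 6.41 in treated cells and 8.82 in untreated cells, and was 5.30-fold lower. IGFBP1, an IGF binding protein repressed by insulin in liver, read 9.15 in treated cells and 10.54 in untreated cells. IGFBP6, a binding protein with a preference for IGF2, read 6.22 in treated cells and 7.43 in untreated cells. IGFBP1 was 2.61-fold lower and IGFBP6 2.31-fold lower. In bulk RNA, less RNA per cell and fewer cells that make it cannot be told apart. ANGPTL4, an angiopoietin-like inhibitor of lipoprotein lipase, read 5.42 in treated cells and 6.38 in untreated cells, a difference of -0.96. Among the 39 members above the floor, these 4 were those whose difference exceeded the limit of 0.80 between probe sets, and each stayed above the floor on both arrays. Each is read by 1 named probe set, so none of them has a second reading on these arrays.

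Of the 39 members above the floor, 3 were at least 2-fold lower (7.69%) and none was at least 2-fold higher. The background share over all 7164 genes was 1.05% for 2-fold lower and 0.628% for 2-fold higher. At 1.5-fold, 5 members were lower, against 3.60% of all genes, and 2 were higher, against 4.62%. Counted from the lowest difference among 7164 genes, STC1 held rank 4, IGFBP1 rank 25, IGFBP6 rank 44 and ANGPTL4 rank 90. The median size of the difference, sign ignored, was 0.28 over the 39 members and 0.19 over all genes above the floor. The signed median was -0.02 over the members and 0.03 over all genes above the floor, with 18 members higher and 21 lower. Since 5 of the 39 passed the floor through 1 array alone, the median over all 96 members is also given, and it was -0.01.

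**Figure D1:**
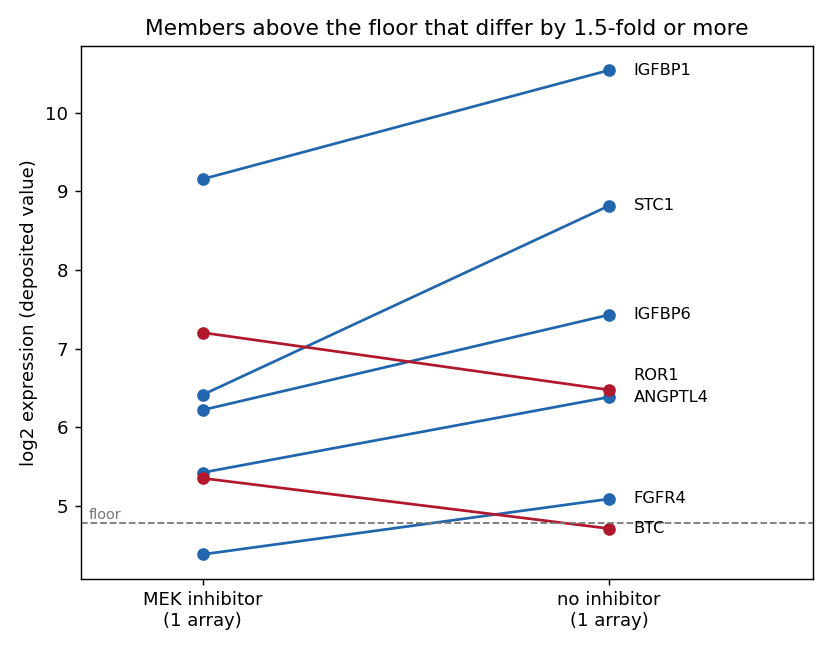
Deposited log2 expression (vertical axis) of the 7 members above the floor that differed by 1.5-fold or more, on the MEK inhibitor array (left) and the array without inhibitor (right), with a line for each gene. Blue lines mark the 5 genes lower with the inhibitor and red lines the 2 higher, and the dashed line is the floor of 4.78.

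**Figure D2:**
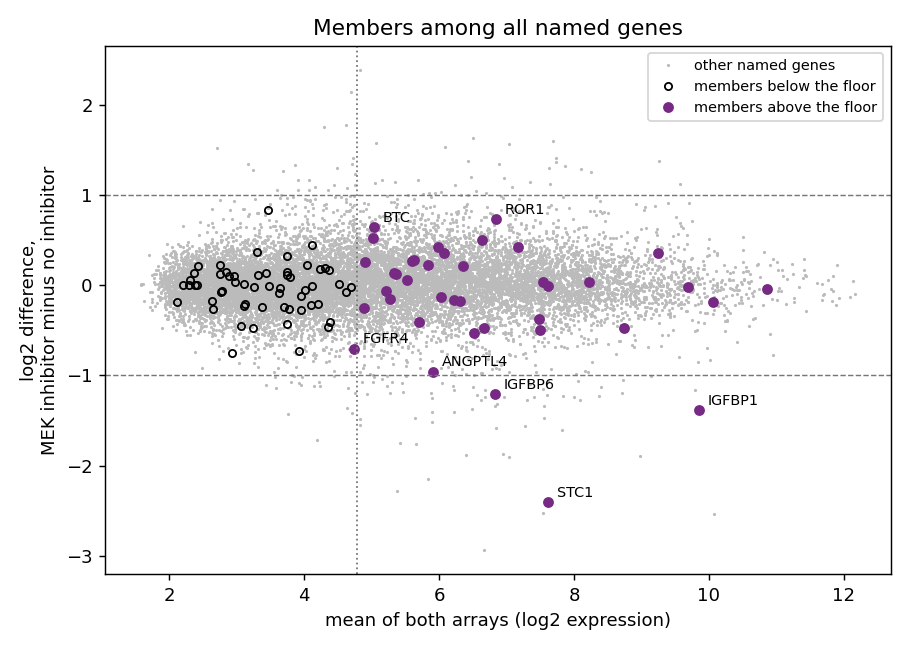
Log2 difference, MEK inhibitor minus no inhibitor (vertical axis), against the mean log2 expression of both arrays (horizontal axis) for 13763 named genes in grey and the 96 members as circles, filled for the 39 above the floor. The dotted line is the floor, the dashed lines mark 2-fold, and STC1 at -2.40 lies farthest from 0 among the members.

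The start regions of the pair of members lowest and of the pair highest with the inhibitor are shown, among members above the floor with 1 promoter entry, to set the regulatory sequence beside the value. They come from RefSeq on GRCh38.p14, which had an entry for 70 of the 96 members and 28 of the 39 above the floor. Each runs 5′ to 3′ on the gene's strand from 250 bases before the start to 50 bases after it. Capitals mark matches on either strand to any of 7 short motifs. The letters searched were TGACTCA for the factor AP-1, which FOS and JUN proteins form, and CCGGAAG for the ETS factors, many of which ERK phosphorylates. For the EGR factors they were GCGGGGGCG, for the core of the hypoxia response element ACGTG, and for the GC box bound by SP1 they were CCGCCC. Forkhead factors were searched by the letters GTAAACA, and the TATA box of core promoters by TATAAA. The EGR letters and a GC box overlap in ANGPTL4. The windows are chr12:53097417-53097716 (IGFBP6, plus strand), chr19:8363905-8364204 (ANGPTL4, plus strand), chr1:63773767-63774066 (ROR1, plus strand) and chr4:74794474-74794773 (BTC, minus strand).
IGFBP6: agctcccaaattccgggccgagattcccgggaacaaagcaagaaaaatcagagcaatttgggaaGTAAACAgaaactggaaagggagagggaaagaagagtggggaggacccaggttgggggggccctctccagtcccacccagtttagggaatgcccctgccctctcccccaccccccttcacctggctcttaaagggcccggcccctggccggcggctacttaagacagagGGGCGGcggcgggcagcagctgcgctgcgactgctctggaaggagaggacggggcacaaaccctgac
ANGPTL4: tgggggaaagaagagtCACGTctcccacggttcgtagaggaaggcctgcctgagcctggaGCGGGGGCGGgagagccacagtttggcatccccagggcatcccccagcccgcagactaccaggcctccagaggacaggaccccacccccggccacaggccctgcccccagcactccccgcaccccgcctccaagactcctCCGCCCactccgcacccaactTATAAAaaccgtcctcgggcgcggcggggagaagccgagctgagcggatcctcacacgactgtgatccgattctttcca
ROR1: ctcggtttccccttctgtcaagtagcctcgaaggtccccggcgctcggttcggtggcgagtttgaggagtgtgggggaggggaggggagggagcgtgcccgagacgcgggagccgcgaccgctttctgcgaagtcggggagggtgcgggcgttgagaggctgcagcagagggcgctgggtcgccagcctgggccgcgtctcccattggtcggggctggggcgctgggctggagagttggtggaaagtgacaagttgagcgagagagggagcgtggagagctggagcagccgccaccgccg
BTC: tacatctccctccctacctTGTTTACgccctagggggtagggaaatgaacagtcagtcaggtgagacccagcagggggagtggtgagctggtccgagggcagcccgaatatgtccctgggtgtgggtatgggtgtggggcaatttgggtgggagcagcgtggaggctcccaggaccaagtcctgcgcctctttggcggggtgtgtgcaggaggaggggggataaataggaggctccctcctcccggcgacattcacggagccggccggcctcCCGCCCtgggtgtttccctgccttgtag

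The ANGPTL4 window held the hypoxia core, EGR and TATA letters and GC boxes. Those of IGFBP6, lower with the inhibitor, and BTC, higher with it, each held 1 forkhead match and 1 GC box. None of the letters searched lay in the ROR1 window, and neither the AP-1 nor the ETS letters lay in any of the 4. Among 35116 RefSeq start regions of the same length, the AP-1 letters were in 4.95%, ETS in 10.3%, EGR in 5.07%, the hypoxia core in 21.4%, the GC box in 45.0%, the forkhead letters in 3.42% and the TATA letters in 11.5%. A match is a run of letters and says nothing about binding.

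Among ligands of the EGF family above the floor, betacellulin was higher, and EREG and HBEGF differed little. BTC, a ligand of EGFR and ERBB4, read 5.35 in treated cells and 4.71 in untreated cells, a difference of 0.64 whose untreated value lies below the floor. EREG (epiregulin) read 10.84 in treated cells and 10.88 in untreated cells. HBEGF, the heparin-binding ligand of the family, read 6.23 in treated cells and 6.41 in untreated cells. EREG and BTC lie close together on chromosome 4 with 1 other coding gene between them, and their differences were -0.05 and 0.64. The neuregulin genes NRG1, NRG2, NRG3 and NRG4, whose products act on ERBB3 and ERBB4, were below the floor on both arrays, with differences from -0.46 (NRG2) to -0.06 (NRG4). The second NRG2 probe set read -0.26. AREG and TGFA are not analysed here.

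Of the receptors of these ligands, EGFR and ERBB3 stayed near their level without the inhibitor. ERBB2 is not analysed here. EGFR read 9.68 in treated cells and 9.69 in untreated cells. ERBB3, the kinase-impaired receptor for neuregulins, read 5.94 in treated cells and 5.72 in untreated cells, a difference of 0.23. ERBB4 was below the floor on both arrays (2.81 in treated cells and 2.69 in untreated cells). The metalloproteases that release EGF ligands from the membrane were both higher, ADAM17 by 0.40 and ADAM10 by 0.34, and their regulators RHBDF2 and RHBDF1 had differences of 0.23 and -0.08. All of these lie within the disagreement between probe sets.

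In the FGF family the 5 members above the floor all had negative differences (median -0.16), and the other 25 of 30 were below it. These differences ran from -0.71 (FGFR4) to -0.01 (FGF2), so some were near 0. Over all 7164 genes above the floor, 3303 were lower. FGFR4, the receptor through which the gut hormone FGF19 acts on liver, read 4.38 in treated cells and 5.09 in untreated cells, a difference of -0.71 whose treated value lies below the floor. Its ligand FGF19 read 3.56 in treated cells and 4.28 in untreated cells (-0.73), and its coreceptor KLB 2.65 in treated cells and 2.51 in untreated cells, all below the floor. FGF2, the one secreted FGF above the floor, read 7.61 in treated cells and 7.62 in untreated cells, while its receptor FGFR1 read 5.19 in treated cells and 5.25 in untreated cells. FGFBP1, a secreted carrier that frees FGF2 from heparan sulfate, read 6.44 in treated cells and 6.91 in untreated cells, a difference of -0.47. FGFRL1, a receptor that lacks the kinase domain, differed by -0.16. FGFR2 (0.23) and FGFR3 (0.19) were below the floor on both arrays, as were the intracellular FGF11, FGF12, FGF13 and FGF14. The 17 other secreted FGFs were below the floor with differences from -0.73 (FGF19) to 0.14 (FGF22), and those next to -0.73 were FGF21 (-0.48) and FGF23 (-0.43).

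In the IGF family, IGFBP1 and IGFBP6 were the members above the floor past 1.5-fold. Of 5 numbered IGFBP genes above the floor, 3 were lower and 2 higher, with a median of -0.50. IGFBP4, which holds IGFs away from their receptor, read 7.25 in treated cells and 7.75 in untreated cells. IGFBP3, the main IGF carrier in blood, read 5.42 in treated cells and 5.30 in untreated cells. IGFBP3 is the direct neighbour of IGFBP1 on chromosome 7 with no other coding gene between them, and the differences were 0.12 for IGFBP3 and -1.39 for IGFBP1. IGFBP7, a relative with weak affinity for IGFs, differed by 0.04, and IGFBP5 (-0.07) and IGFBPL1 (-0.45) were below the floor. STC2, like STC1 a known inhibitor of the pappalysin protease that cleaves IGFBP4, read 6.89 in treated cells and 6.39 in untreated cells, a difference of 0.50 against -2.40 for STC1.

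IGF1R, the receptor kinase for IGF1 and IGF2, read 6.14 in treated cells and 6.31 in untreated cells. INSR, the insulin receptor gene, was below the floor with 4.32 in treated cells and 4.15 in untreated cells. IGF2R, which clears IGF2 and has no kinase, differed by 0.03. The ligand gene IGF1 lay below the floor on both arrays (0.22), and IGF2 is not analysed here. IRS1, the adaptor that couples IGF1R and INSR to PI3K, read 5.06 in treated cells and 5.95 in untreated cells (-0.90), whereas IRS2 differed by -0.04. Among the IGF-like ligands, which form 1 cluster of neighbouring genes on chromosome 19, IGFL1 differed by 0.83 (3.88 in treated cells and 3.05 in untreated cells), IGFL2 by -0.76, IGFL3 by -0.09 and IGFL4 by 0.15. All 4 were below the floor on both arrays. IGFLR1, the receptor of IGFL1, read 5.04 in treated cells and 4.78 in untreated cells.

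All 4 PDGF ligands were higher, each within the disagreement between probe sets. Only PDGFA and PDGFB were above the floor, and over all 7164 genes above it 3858 were higher. PDGFA read 6.24 in treated cells and 5.89 in untreated cells, and PDGFB read 6.19 in treated cells and 5.77 in untreated cells. PDGFC (0.44) and PDGFD (0.32) were below the floor on both arrays. PDGFRL, a relative of the PDGF receptors without a kinase, read 5.28 in treated cells and 4.76 in untreated cells (0.53). The receptor kinases for the PDGFs are not analysed here.

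The VEGF ligands, which act on endothelial receptors, did not share a direction. VEGFA read 7.30 in treated cells and 7.67 in untreated cells, a difference of -0.37. VEGFC, a lymphatic growth factor, read 4.76 in treated cells and 5.02 in untreated cells (-0.26). VEGFB was 0.28 higher, at 5.77 in treated cells and 5.49 in untreated cells. Their receptors FLT1 (-0.17), KDR (-0.03) and FLT4 (-0.01) were below the floor on both arrays. NRP1, a coreceptor for VEGFA, read 7.20 in treated cells and 7.54 in untreated cells, and NRP2 differed by 0.01. ANGPT1, ANGPT2 and ANGPT4, ligands of the endothelial TIE receptors, were below the floor with differences from 0.01 to 0.17. Among angiopoietin-like genes, ANGPTL8, a regulator of lipoprotein lipase, differed by 0.14, against -0.96 for ANGPTL4, and ANGPTL5, ANGPTL6 and ANGPTL7 were below the floor.

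Among the other receptor kinases ROR1, AXL and DDR1 were higher and MST1R and MET lower. The NTRK genes are not analysed here. ROR1, an orphan-type receptor for WNT5A, read 7.20 in treated cells and 6.48 in untreated cells, and its difference of 0.73 was the highest of any member above the floor. DDR1, a collagen receptor, read 7.38 in treated cells and 6.95 in untreated cells, and AXL read 9.41 in treated cells and 9.06 in untreated cells. GAS6, the ligand of AXL, read 5.04 in treated cells and 4.44 in untreated cells, a difference of 0.60 whose untreated value lies below the floor. MST1R, the receptor for macrophage-stimulating protein, read 5.50 in treated cells and 5.91 in untreated cells. Its second, dimmer probe set read 4.49 in treated cells and 4.56 in untreated cells. MET, the receptor of hepatocyte growth factor, read 9.96 in treated cells and 10.15 in untreated cells, and its ligand gene HGF was below the floor (2.38 in treated cells and 2.39 in untreated cells). HGFAC, the protease that activates HGF (-0.28), DDR2 (-0.24) and ROR2 (0.11) were below the floor as well. Of these receptors ROR1 alone passed 1.5-fold, and none passed the limit of 0.80.

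Over the 10 receptor kinases above the floor the median difference was -0.04, with 4 higher and 6 lower, against 0.03 over all genes above the floor. It turned to 0.12 over all 16 receptor kinases without the floor, and to 0.35 over the 5 above the 75th percentile of gene levels (EGFR, MET, AXL, DDR1 and ROR1). The 10 ligands above the floor had a median of -0.03, with 4 higher and 6 lower. LIF, a cytokine of the interleukin-6 family that acts through receptors without a kinase domain, had the lowest difference of these ligands, with 6.26 in treated cells and 6.78 in untreated cells (-0.53). Its receptor gene LIFR was below the floor on both arrays (0.41). Of 40 ligand-receptor pairs listed from textbook knowledge, 30 had both genes named on the array and 5 had both above the floor. These were BTC, EREG and HBEGF with EGFR, FGF2 with FGFR1, and GAS6 with AXL. The list was not complete, so this count depends on it. Among pairs it left out, FGF2 with FGFR4 (-0.71) and GAS6 with MERTK (-0.46) also had both genes past the floor. GAS6 and AXL were both higher, by 0.60 and 0.35, each within the disagreement between probe sets, whereas MERTK was lower. GAS6 and BTC reached the floor only with the inhibitor, so their pairs were counted through that array alone. In the other 4 listed pairs the receptor differed by no more than 0.06 in either direction. That bound would not hold with FGF2 and FGFR4 (-0.71) added.

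**Figure D3:**
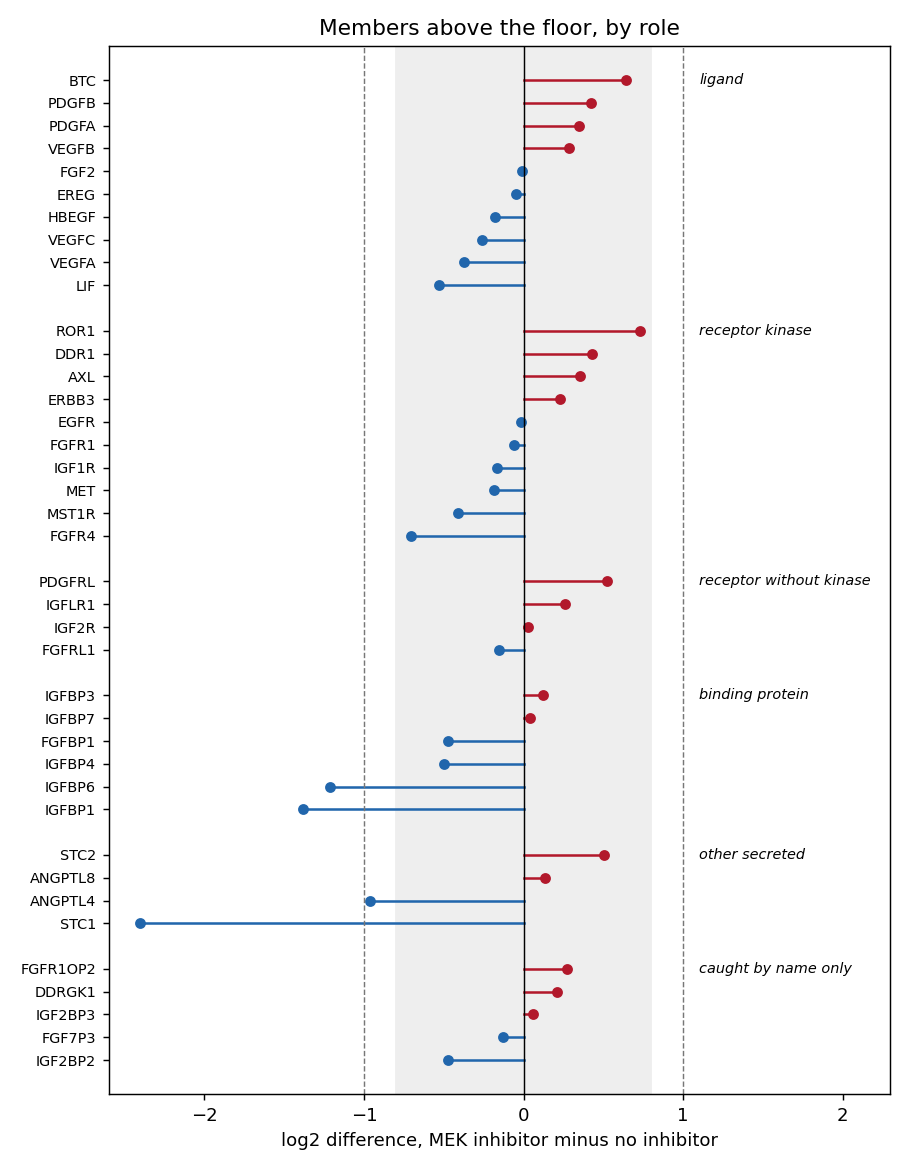
Log2 difference, MEK inhibitor minus no inhibitor (horizontal axis), of the 39 members above the floor, grouped by role, red when higher and blue when lower with the inhibitor. The grey band spans the 0.80 by which pairs of probe sets of 1 gene disagreed in up to 95% of pairs, the dashed lines mark 2-fold, and STC1, IGFBP1, IGFBP6 and ANGPTL4 lie outside the band.

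**Figure D4:**
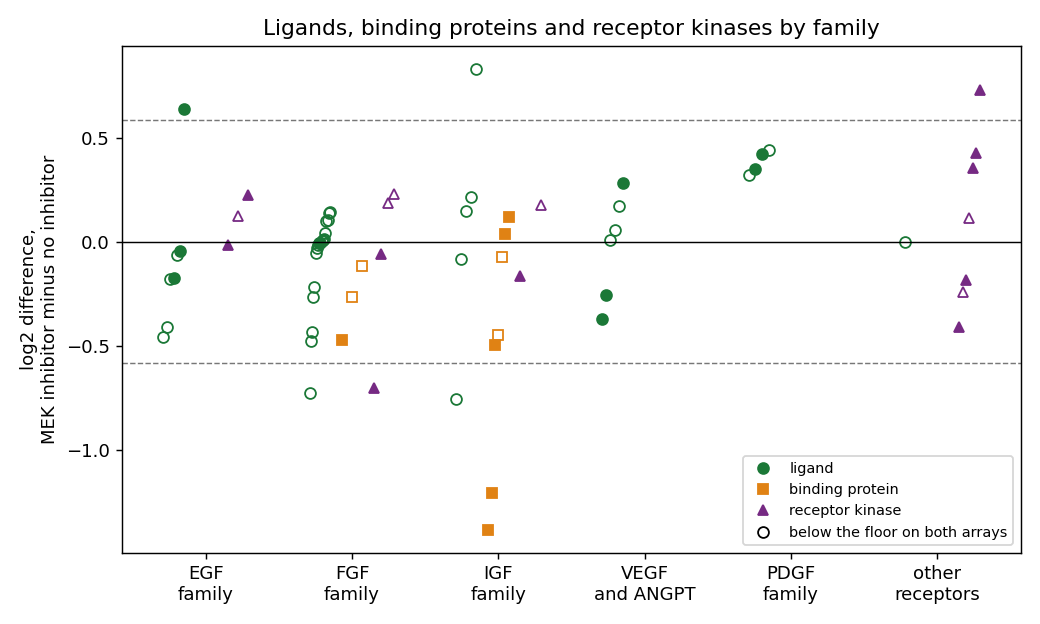
Log2 difference, MEK inhibitor minus no inhibitor (vertical axis), of ligands (circles), binding proteins (squares) and receptor kinases (triangles) in each family (horizontal axis), 1 symbol per gene, open when the gene was below the floor on both arrays. Dashed lines mark 1.5-fold, and the pair of squares below -1 in the IGF family is IGFBP1 and IGFBP6.

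Several genes that restrain the receptors or the MAP kinases below them were lower with the inhibitor. Of 10 genes for receptor feedback and turnover above the floor, 7 were lower, 5 of them at least 2-fold (SPRY2, SPRY4, DUSP4, DUSP5 and DUSP6), and 3 were higher, with a median of -0.80. These genes were listed with their direction already known, so nothing is read from this count beside the background share of 1.05%. SPRY2 (4.72 in treated cells and 5.73 in untreated cells) and SPRY4 reached the floor only without the inhibitor, and IL17RD only with it. SPRY4, a Sprouty inhibitor of receptor signalling, read 4.77 in treated cells and 6.92 in untreated cells. DUSP4, a phosphatase of MAP kinases, read 5.45 in treated cells and 7.34 in untreated cells. ERRFI1, which binds and inhibits EGFR, differed by -0.51, SH3KBP1, an adaptor in EGFR uptake, by -0.59, and LRIG1, which promotes EGFR turnover, by 0.23. IL17RD, an inhibitor of FGF signalling, read 5.22 in treated cells and 4.57 in untreated cells (0.65). Of 11 receptor adaptors above the floor, 4 were higher and 7 lower with a median of -0.04, and IRS1 alone passed 1.5-fold. Of 6 genes of the RAS-RAF-MEK-ERK cascade above the floor, 3 were higher and 3 lower, with HRAS at -0.59. Of 7 coreceptors and heparan sulfate carriers above the floor none passed 1.5-fold, and the syndecan gene SDC1 came nearest (-0.58).

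Of 11 other receptor tyrosine kinases above the floor, 8 were lower and 3 higher, with a median of -0.32. Over all 7164 genes above the floor, 3303 were lower and the median was 0.03. This list and those of adaptors, cascade genes and coreceptors were made with earlier results known, so nothing is read from their counts. The ephrin receptor gene EPHA7 read 4.23 in treated cells and 6.52 in untreated cells, and EPHA2 differed by -0.67. STYK1, a kinase with a short extracellular part, was the one higher past 1.5-fold, by 0.71, and MERTK, a relative of AXL, differed by -0.46 against 0.35 for AXL.

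None of the members caught by name only passed 1.5-fold in the probe set used. IGF2BP2, an RNA-binding protein that binds the IGF2 messenger RNA, read 8.50 in treated cells and 8.97 in untreated cells (-0.47), whereas its relative IGF2BP3 differed by 0.06. FGFR1OP2 (0.27) and DDRGK1, a protein of the UFM1 modification pathway (0.21), were higher. The pseudogene FGF7P3 differed by -0.13, and its probe set may also read FGF7 and its other copies. IGF2BP1 (-0.24), RORA (-0.21), RORB (0.22), FGF7P6 (0.36) and the 3 non-coding members, from -0.21 to 0.14, were below the floor on both arrays, and the second FGF7P6 probe set read -0.70. Over all 57 members below the floor the differences ran from -0.76 (IGFL2) to 0.83 (IGFL1). None reached 2-fold, and 3 (FGF19, IGFL2 and IGFL1) passed 1.5-fold.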

How the data were processed

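Total RNA of 2 samples was hybridised to Affymetrix whole-transcript arrays, 100 ng per sample per the labels' protocols. The authors deposited 1 log2 value per probe set and array, made with Affymetrix Expression Console 1.3 per the submitters' processing notes. That scale was inferred from their range of 1.16 to 13.38. How background was corrected and arrays were normalized is not given in the sources used here. Since array medians were 3.46 in treated cells and 3.49 in untreated cells, no further scaling was applied. Quantile-type scaling would hide a change in total RNA output. No detection calls were used, and the precision is limited by 1 array per group.

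Samples were grouped by their titles. Of 53617 probe sets, 16098 carried 1 gene symbol, 37519 are unnamed here, and all Entrez identifiers were found in the RefSeq gene table. After 1287 small RNA probe sets were set aside, the probe set with the highest mean stood for each gene. No test was run. Named were all members above the floor, with both values past 1.5-fold, and some of the partners in ligand-receptor pairs. Members, lists, pairs and motifs were chosen with earlier results of these data known. Alternatives were subtraction of the median difference or a loess trend (span 0.3), no floor, a floor at the 75th percentile, averaged probe sets, and thresholds of 1.5-fold and 3-fold. Python 3.11.15, numpy 2.4.6, pandas 2.3.3 and statsmodels 0.14.6 were used.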

Additional observations from a re-analysis of the deposited data

Results flagged for a closer look

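DDR1 carried 4 probe sets, and the pair of readings that differ from the one used above also lay above the array without inhibitor. Probe set 17027581 read 7.24 in treated cells and 6.71 in untreated cells (0.53), and probe set 17030426 read 7.08 in treated cells and 6.56 in untreated cells (0.52). The remaining probe set had the same values as the one used (0.43), so it is no further reading. All are above the floor, and they may share probes.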

How the results depend on the processing

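No paired analysis was possible because the groups hold 1 array apiece, which also leaves none to drop. The 3 members at least 2-fold lower stayed 3 after subtraction of the median difference and became 4 with the loess trend subtracted. The count was also 3 with averaged probe sets, without the floor and with the 75th percentile filter. STC1, IGFBP1 and IGFBP6 have 1 probe set each and levels above that percentile, so averaging and that filter could not remove them. Without the floor the count could only grow, and no member below it reached 2-fold. A 1.5-fold threshold gave 2 higher and 5 lower, and a 3-fold threshold 0 higher and 1 lower. The medians moved with the floor: over receptor kinases to 0.12 without it and 0.35 with the 75th percentile filter, and over ligands to -0.21 with that filter, which left fewer genes in each. None of the 39 members above the floor changed sign under either scaling, nor did any of the 38 left with averaged probe sets. Averaging could move only DDR1, MST1R and FGF7P3, since the others have 1 probe set. MST1R moved most, to -0.24 with its probe sets averaged. FGF7P3 fell below the floor when averaged. Both scalings shifted members by at most 0.072, so they test the scaling weakly. One of the 2 values lies below the floor for the members BTC, FGFR4, PDGFRL, IGFLR1 and VEGFC and, among the other genes named, for EPHA7, SPRY2, SPRY4, GAS6, IL17RD, KRT7 and TYROBP, so the size of these differences rests on a dim signal.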
